A study of Mus musculus with 36 samples.

Results

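The genes described here are 10 Wnt ligands, Wnt1, Wnt3, Wnt3a, Wnt4, Wnt5a, Wnt5b, Wnt7a, Wnt7b, Wnt8a and Wnt8b, taken by name from tables that together list 19426 genes. All 10 are listed for neural stem cells (NSCs) and 7 for embryonic stem cells (ESCs). Wnt1, Wnt7a and Wnt8b are not listed in the ESC table. The groups were wildtype (WT) cells and triple knockout (TKO) cells, labelled as knocked out for Tet1, Tet2 and Tet3, the genes of the TET dioxygenases. All came from male V6.5 mouse ESCs of mixed 129/C57BL/6 background. ESCs were preplated for 45 minutes to remove feeders and kept in serum and LIF on gelatin for 24 hours. NSCs were derived from such ESCs and harvested on day 6 at passage 1. RNA-seq covered 3 WT lines and 2 TKO lines, called independent in the labels, as ESCs and again as NSCs, and promoter capture Hi-C (pcHiC), which maps contacts of captured promoters with other DNA, covered 1 WT and 1 TKO NSC sample.

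Wnt proteins are secreted, lipid-modified signals that bind Frizzled receptors on nearby cells. With an LRP co-receptor they stabilise beta-catenin, which joins TCF and LEF proteins on target genes; other receptors such as Ror2 carry signals that do not need beta-catenin. In the embryo Wnt3 and Wnt8a act in the primitive streak, Wnt1 at the midbrain-hindbrain boundary and dorsal neural tube, Wnt3a and Wnt8b in the dorsomedial forebrain, and Wnt7a and Wnt7b in the developing cortex. TET enzymes oxidise methylated cytosine, which in mammals lies mostly at CpG sites.

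TET enzymes act on CpG sites where these are methylated. Here 3 promoters are shown with their CpG sites, whose methylation was not analysed. They belong to Wnt8b (the largest change in TKO NSCs, few CpG sites), Wnt3a (also changed, many) and Wnt7a (not passed, at 26 to 42 reads per library, many). Each is the 250 bases before the transcript start, 5′ to 3′ on the gene's strand, from RefSeq on build GRCm38.p6, with each CpG in capitals. They lie at chr19:44493222-44493471 on the plus strand, chr11:59290752-59291001 on the minus strand and chr6:91411354-91411603 on the minus strand.
Wnt8b: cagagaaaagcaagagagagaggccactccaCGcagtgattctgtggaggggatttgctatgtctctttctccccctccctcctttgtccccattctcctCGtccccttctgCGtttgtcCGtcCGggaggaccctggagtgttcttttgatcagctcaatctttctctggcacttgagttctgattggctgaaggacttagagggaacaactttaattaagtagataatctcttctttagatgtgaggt
Wnt3a: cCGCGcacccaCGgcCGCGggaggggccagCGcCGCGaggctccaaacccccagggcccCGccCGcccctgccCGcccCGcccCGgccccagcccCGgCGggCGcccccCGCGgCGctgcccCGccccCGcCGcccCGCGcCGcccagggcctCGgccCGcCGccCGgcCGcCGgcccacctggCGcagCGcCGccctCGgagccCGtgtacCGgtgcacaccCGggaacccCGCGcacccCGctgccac
Wnt7a: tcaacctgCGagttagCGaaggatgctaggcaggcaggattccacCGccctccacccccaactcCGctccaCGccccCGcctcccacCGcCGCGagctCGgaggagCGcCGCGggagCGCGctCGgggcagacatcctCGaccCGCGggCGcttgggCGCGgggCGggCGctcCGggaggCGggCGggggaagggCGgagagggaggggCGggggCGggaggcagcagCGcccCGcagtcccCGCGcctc
The Wnt8b window held 5 CpG sites, close to the median of 6 over 32841 promoter windows of this length, and 44.4% of windows held fewer. The Wnt3a window held 41 and the Wnt7a window 34, more than 98.9% and 96.5% of windows. RefSeq windows were matched for 7 ligands. Wnt4 had 44 CpG sites, the most upstream of 3 Wnt5b starts 35, Wnt1 23 and Wnt3 22. The TCF and LEF motif was searched as CTTTGAA and CTTTGAT on both strands. CTTTGAT was found in 1 member window, at the most downstream Wnt5b start, and in 3.21% of all windows, and CTTTGAA in none of the member windows and in 4.45% of all. Neither these letters nor TATAAA, found in 12.4% of all windows, stand in the 3 sequences printed. DNA methylation was not analysed here. Wnt5a, Wnt7b and Wnt8a had no entry.

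The RNA values are counts per gene divided by a size factor for the library, and whole reads recovered from them summed to 41.0 M to 49.1 M per library. Tet1 ranged from 9634 to 12237 in WT ESCs and from 4635 to 4966 in TKO ESCs, while Tet2 in NSCs ranged from 1066 to 1295 in WT lines and from 1146 to 1555 in TKO lines. Which stretch of each gene was deleted is not stated, and reads over what remains do not check the labels. In NSCs 8 of 9 neural stem markers fell, their sum running from 117044 to 130309 in WT and from 44196 to 53442 in TKO libraries. Of the neural crest markers 6 of 9 listed rose (sums of 5438 to 6065 and 14052 to 14932, with the defining gene Sox10 not listed), and of 10 fibroblast and mesenchyme markers 8 rose and 1 fell (54522 to 67702 and 130750 to 153859). Of 9 trophoblast and epithelium markers listed 6 rose and 1 fell (2547 to 3038 and 5302 to 10012), and of 9 pluripotent markers listed 4 rose and 1 fell, while their sum ran from 15616 to 17775 in WT and from 11296 to 11899 in TKO. Of 10 neuron markers 1 rose and 2 fell (13462 to 16921 and 13607 to 14193). Of 6 endothelium and blood markers listed 3 rose and 2 fell (3094 to 3710 and 1615 to 2278). Over all genes in NSCs 37.7% passed. In these bulk samples, fewer cells of a type and less RNA per cell cannot be told apart, and the part of these marker shifts in the Wnt results was not tested.

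In TKO NSCs, 4 of the 10 ligands fell, Wnt8b, Wnt7b, Wnt3a and Wnt5a, 1 rose, Wnt8a, and 5 did not pass the test (limma on log2(value + 1), Benjamini-Hochberg adjusted p under 0.05 over 17744 genes). Over all genes, 37.7% passed in this comparison, 18.2% higher and 19.5% lower. The ligands' median log2 fold change was -0.35, against 0.01 over all genes tested. The TKO and WT libraries did not overlap for the same 5 ligands, and for 59.9% of all genes (30% higher and 29.9% lower in TKO). The 5 calls held under each alternative in which the ligand was tested.

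**Figure D1:**
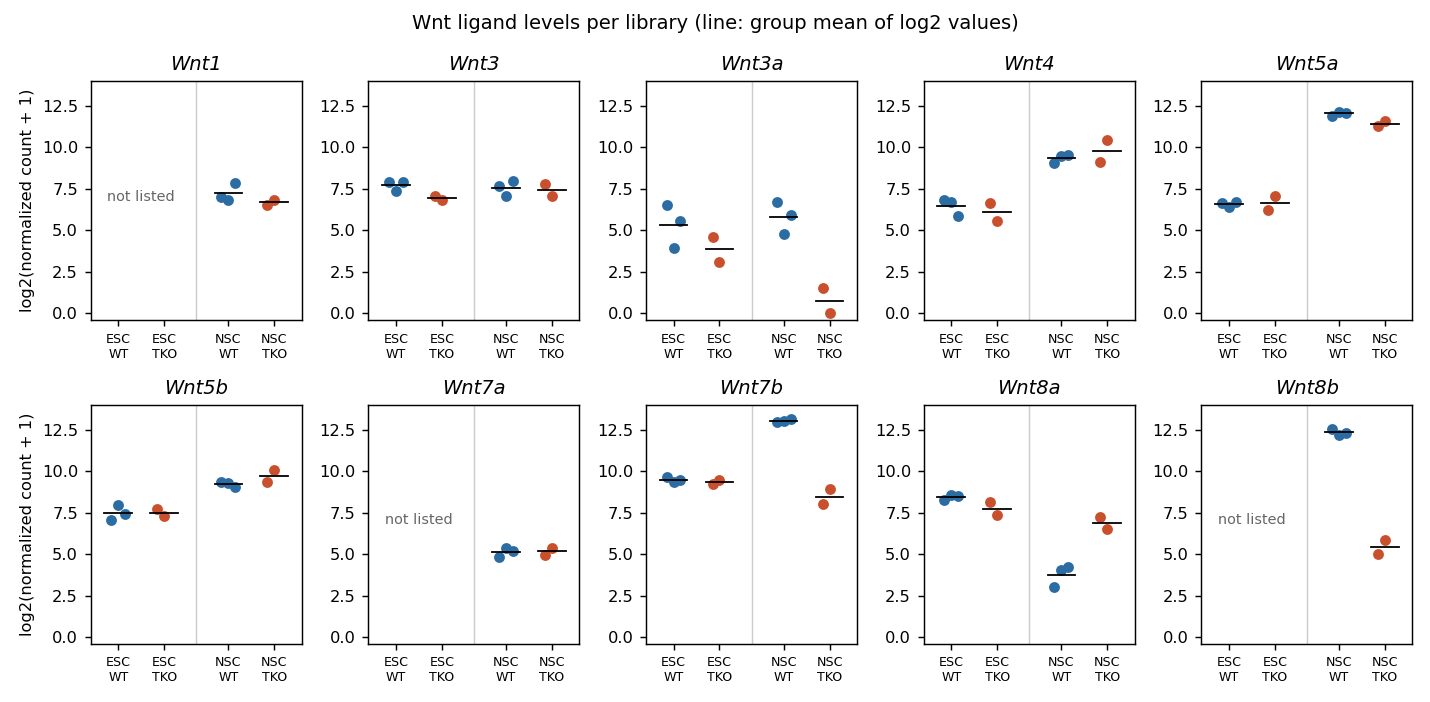
Level of each ligand in each library, as log2(normalized count + 1), with WT in blue, TKO in orange and a line at the mean of each group of 3 WT or 2 TKO libraries. ESC and NSC tables were scaled separately, so heights are compared within a cell type; Wnt8b and Wnt7b fall far below every WT library in TKO NSCs, and Wnt8a lies above.

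Wnt8b marks the dorsomedial edge of the forebrain, the region of the cortical hem. Its gene spans chr19:44493472-44514273. In NSCs it stood at 5949, 4578 and 5067 in the WT lines and at 31.2 and 55.6 in the TKO lines. Even the higher TKO line lay far under the lowest WT line, while the WT lines differed among themselves by 1.30 times. The mean fell from 5198 ± 695 (SD, n = 3) to 43.4 ± 17.3 (SD, n = 2; the same n hold for each ± given for WT and TKO), 120 times lower, with a log2 change of -6.92 (SE 0.21, limma adjusted p = 2.88e-09). By p-value it ranked 11th of 17744 genes. The genes within 10 Mb on either side had a median change of -0.07.

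Wnt7b, a ligand of cortical progenitors and their vessels at chr15:85535437-85581821, was high in WT NSCs, with 8089, 8211 and 8974 in the 3 lines. The TKO lines held 255 and 480, so that the groups were far apart although the TKO lines differed by 1.88 times. The mean fell from 8425 ± 480 to 368 ± 159, 22.9 times lower (log2 -4.58, SE 0.19, limma adjusted p = 3.52e-08). The gene AU022754 lies in part within Wnt7b, sharing 680 bases, and no source states a strand setting for the counting.

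Wnt3a, which drives growth of the hippocampal primordium from the cortical hem and somite formation in the tail bud, spans chr11:59248036-59290751. WT NSCs held 105, 26.0 and 60.2, and TKO NSCs 1.84 and 0. Every WT line was above both TKO lines, but WT lines differed by 4.06 times. In whole reads this was 188 over the WT libraries against 2 over the TKO libraries, a depth-scaled ratio of 68.0 with a 95% counting interval of 18.6 to 566. Counted as read pairs, 94 against 1, the interval was 11.9 to 2715; both cover counting error only. The fitted log2 change was -5.06 (SE 0.86, limma adjusted p = 0.000738), a value that depends on the pseudocount of 1 and stood at -3.37 with a pseudocount of 5 and at -4.30 without TKO replicate 2. Its neighbours within 10 Mb had a median of 0.48, in the other direction.

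Wnt5a, the main ligand of signalling without beta-catenin, fell less. At chr14:28504543-28527448, it stood at 3864, 4518 and 4365 across the WT lines of NSCs, and the TKO lines held 2454 and 3060. Both TKO lines were under all WT lines, with means of 4249 ± 342 and 2757 ± 429 (log2 -0.63, SE 0.10, limma adjusted p = 0.000525).

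Wnt8a, a ligand of the primitive streak and early posterior embryo, moved the other way. It was low in WT NSCs, at 7.23, 15.2 and 17.5, and stood at 152 and 91.7 in TKO NSCs. Both TKO lines were above all WT lines, and the mean rose from 13.3 ± 5.37 to 122 ± 42.3 (log2 3.14, SE 0.57, limma adjusted p = 0.00109). The WT values rest on 7 to 18 reads per library, and the TKO values on 94 and 165.

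The other 5 ligands did not pass in NSCs. Wnt1, the boundary and roof plate ligand, stood at 129, 112 and 230 in the WT lines, overlapping the 91.8 and 113 of the TKO lines (log2 -0.54, SE 0.34). Wnt7a, in the same subfamily as Wnt7b, was low and overlapping, with 26.9, 41.1 and 35.0 against 29.4 and 41.0 (0.04, SE 0.50). Whether its change differs from that of Wnt7b was not tested. Wnt3 ranged from 134 to 249 in WT and was 218 and 135 in TKO (-0.15, SE 0.31), changing sign without TKO replicate 2 (0.20) or WT replicate 3 (0.05). Its neighbours had a median of 0.59, and with that median taken off Wnt3 stood at -0.75 (limma adjusted p = 0.104).

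For Wnt4 and Wnt5b the 2 TKO lines disagreed. Wnt4, known from kidney and gonad development, stood at 525, 702 and 744 in WT, at 556 in the first TKO line and at 1383 in the other. It missed the threshold (log2 0.43, SE 0.30, limma adjusted p = 0.290), passed without TKO replicate 1 (1.09, adjusted p = 0.00159) and with the replicate number as a block (adjusted p = 0.0154), and had the other sign without TKO replicate 2 (-0.22). Wnt5b, a close relative of Wnt5a, held 662, 631 and 524 across the WT lines, against 659 and 1094 for TKO. Its change of 0.49 (SE 0.20, adjusted p = 0.0710) passed without TKO replicate 1 (0.86, adjusted p = 0.00341) and by DESeq2 (adjusted p = 0.0447). Wnt5b lies on chromosome 6 among genes whose median change was 0.53, and less that median it stood at -0.02. It also overlaps 4 other annotated genes, Fbxl14 among them.

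**Figure D2:**
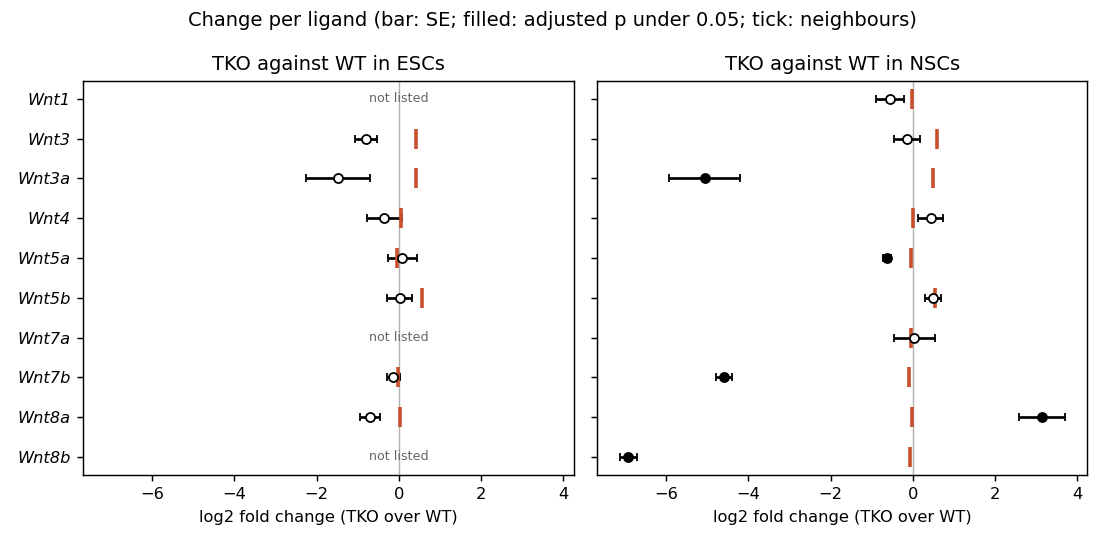
Log2 fold change of each ligand, TKO over WT, with its standard error, in ESCs on the left and NSCs on the right; filled points passed at an adjusted p under 0.05, and orange ticks give the median change of genes within 10 Mb. All 7 ESC points are open, and 5 of 10 NSC points are filled, with Wnt8b at -6.92 and Wnt8a at 3.14.

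In ESCs none of the 7 listed ligands passed (0 of 7 by limma and by edgeR, 1 by DESeq2; 2 at an unadjusted p under 0.05), where 14.3% of all genes did, 7.29% higher and 7.02% lower. Their median log2 change was -0.35. TKO and WT libraries did not overlap for 2 ligands, Wnt3 and Wnt8a, as for 43.4% of all genes.

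Wnt3, the ligand that starts the primitive streak, held 237, 162 and 246 across the WT ESC lines, against 131 and 111 for TKO. Both TKO lines were under all WT lines (log2 -0.80, SE 0.28, limma adjusted p = 0.0634). It passed by DESeq2 (adjusted p = 0.0423), without WT replicate 2 (adjusted p = 0.0375) and less the median of its neighbours, which was 0.42 (log2 -1.24, adjusted p = 0.0132). Over all alternatives its adjusted p ran from 0.0132 to 0.273. Wnt3 shares 1098 bases with Wnt9b, which neither table lists.

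Wnt8a values were 303, 379 and 355 for WT ESC lines, above the 281 and 160 of the TKO lines (log2 -0.70, SE 0.25, limma adjusted p = 0.0684). It passed without TKO replicate 1 (-1.11, adjusted p = 0.0142). Wnt3a was scattered, with WT lines at 91.6, 14.1 and 46.3, TKO lines at 23.0 and 7.69, and overlap, and did not pass (-1.48, SE 0.77, adjusted p = 0.231).

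Wnt7b, which fell so far in NSCs, gave 799, 638 and 709 for the WT ESC lines, overlapping the TKO lines at 606 and 699, with a log2 change of -0.13 (SE 0.16, adjusted p = 0.643). Wnt5a was at 101, 82.4 and 103 against 75.4 and 135 (0.09, SE 0.35), and Wnt5b and Wnt4 overlapped as well (0.02, SE 0.30, and -0.35, SE 0.43). The signs of these last 3 changed with the library left out.

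The change between cell types in the effect of TET loss was tested directly over 15381 genes listed in both tables, of which 20.7% passed, 10.9% higher and 9.8% lower. For Wnt7b the log2 effect was 4.45 lower in NSCs than in ESCs (interaction -4.45, SE 0.28, limma adjusted p = 2.33e-07), and by p-value it ranked 16th. For Wnt8a the effect was higher in NSCs (3.84, SE 0.59, adjusted p = 0.000450), the change in ESCs being negative but not passing. The other 5 did not pass. Wnt3a stood at -3.57 (SE 1.26, adjusted p = 0.0610) and passed with the line as a block (replicate block, adjusted p = 0.0225), by DESeq2 (0.0287), with a pseudocount of 0.5 (0.0493), without WT ESC replicate 1 (0.0355) and without WT NSC replicate 2 (0.0449). Wnt5a stood at -0.71 (SE 0.30, adjusted p = 0.116) and passed by DESeq2 (adjusted p = 0.0178) and without TKO ESC replicate 1 (-1.13, adjusted p = 0.00587).

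The same ligands were then compared between cell types with all 10 libraries scaled together, on which scale ESC and NSC values may be set side by side. In WT, 4 of 7 rose from ESCs to NSCs and 1 fell, where 75.3% of genes passed (37.8% higher, 37.5% lower), 5815 higher and 5769 lower. With equal library totals the split over all genes was 7185 higher and 4553 lower with a median of 0.32, and the same number of ligands passed in each direction. Wnt5a rose from 111 ± 13.2 to 3623 ± 288, 32.6 times (log2 5.02, SE 0.19). Wnt7b rose 8.61 times, from 834 ± 97.7 to 7184 ± 405 (3.11, SE 0.17), Wnt4 by 2.43 (SE 0.37) and Wnt5b by 1.32 (SE 0.25). Wnt8a fell from 403 ± 43.5 to 11.3 ± 4.57, 35.6 times lower (-5.11, SE 0.37).

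Wnt3 and Wnt3a did not pass between WT cell types. Wnt3 stood at 250 ± 53.7 in ESCs and 167 ± 49.2 in NSCs (-0.60, SE 0.29, limma adjusted p = 0.0764, and adjusted p = 0.0446 with the line as a block). It passed too without WT ESC replicate 2 (-0.79, adjusted p = 0.0350) and without WT NSC replicate 3 (-0.80, adjusted p = 0.0403). Wnt3a was at 59.2 ± 45.7 and 54.5 ± 34.03, with a change of 0.03 (SE 0.79) whose sign varied with the method. These 2 ligands were the ones whose WT lines stood in the same order in both cell types: for Wnt3a line 1 was highest and line 2 lowest, and for Wnt3 line 3 highest and line 2 lowest.

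In TKO, 3 ligands rose from ESCs to NSCs and 3 fell, where 70.2% of genes passed (35.4% higher, 34.8% lower), 5439 higher and 5359 lower (7062 and 3864 with equal library totals). Wnt7b fell, from 758 ± 70.6 to 310 ± 133 (-1.35, SE 0.21, limma adjusted p = 4.67e-05). Its order over the groups was therefore NSC WT highest, the 2 ESC groups in the middle and not separated by the test, and NSC TKO lowest. Wnt8a fell by 1.30 (SE 0.46, adjusted p = 0.0206), from 256 ± 102 to 103 ± 36.2. That call was lost with equal totals (adjusted p = 0.0930), without TKO ESC replicate 1 (0.182) and without TKO NSC replicate 2 (0.158). Wnt3a fell from 17.9 ± 12.8 to 0.78 ± 1.1 (log2 -3.38, SE 0.97, adjusted p = 0.00616), a call lost without TKO ESC replicate 1 (adjusted p = 0.0662) and, at the threshold itself, without TKO NSC replicate 2.

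Wnt5a, Wnt4 and Wnt5b rose in TKO as well, by 4.29 (SE 0.23), 3.21 (SE 0.46) and 1.78 (SE 0.31) on the log2 scale. Wnt3 stood at 141 ± 17.1 and 149 ± 50.2 (0.04, SE 0.36). Among the ligands tested, Wnt7b alone passed in both genotypes with opposite signs.

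**Figure D3:**
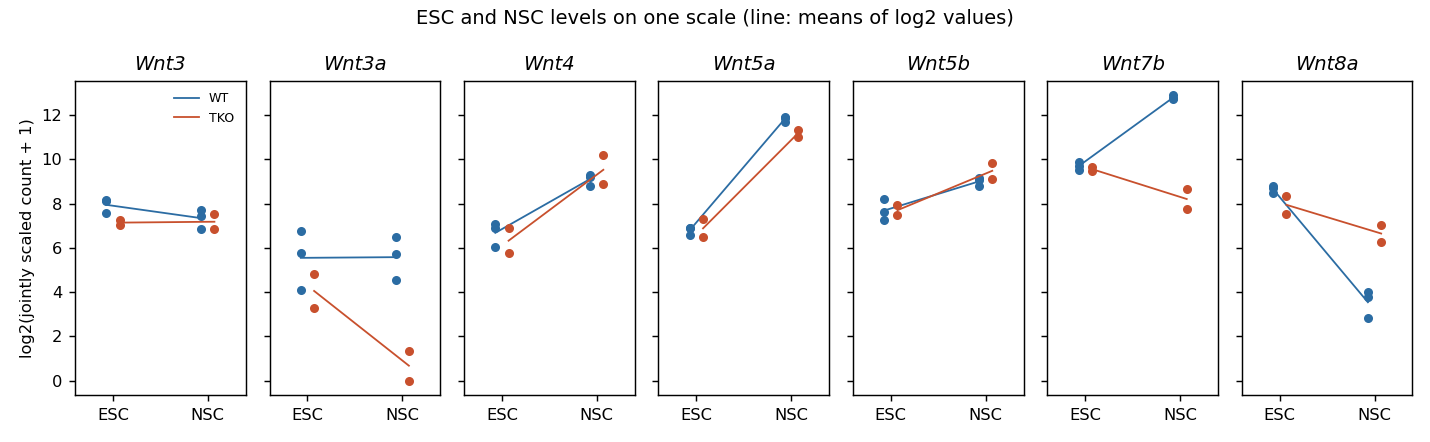
Levels of the 7 ligands listed in both tables, in log2(jointly scaled count + 1), from ESCs to NSCs; points are libraries, lines join group means, blue is WT and orange TKO. The Wnt7b lines part, up to 7184 in WT and down to 310 in TKO NSCs, while the Wnt5a lines rise together.

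The genes with the pattern most like each ligand over the 10 libraries were found by Pearson r of the jointly scaled log2 values, among 15380 other genes. The libraries share cell type and genotype, so these are descriptions. Wnt7b was most like Mtss1 (r = 0.995), Intu and Il6ra, and Wnt5a most like Gprasp1, Ptpra and Dnajc10 (0.998 for each). Wnt8a was most like Arid3b, Car4 and Egr2 (0.988 to 0.991), Wnt4 like Tgm2, Man1b1 and Gm37768, and Wnt5b like Prrg1, Zfyve19 and Slc37a2. For Wnt3a the nearest were BC067074, Ncaph and Mirt1 (0.940 to 0.960), and for Wnt3, Fbxo28, A030005L19Rik and Coro2a (0.848 to 0.878).

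Other genes of the pathway were read from lists chosen with earlier results known. Beside the counts of these lists in NSCs stands the share over all genes, of which 37.7% passed, 18.2% higher and 19.5% lower. Of 6 other Wnt ligands tested in NSCs, Wnt6 rose from 101 ± 17.6 to 344 ± 68.9 (log2 1.76, SE 0.27), Wnt11 rose by 1.39 (SE 0.44), a call lost without WT replicate 1, WT replicate 2, TKO replicate 1 or TKO replicate 2 (adjusted p = 0.0619, 0.0644, 0.0627 and 0.158). Wnt9a fell from 932 ± 60.6 to 579 ± 221 (-0.74, SE 0.20), a call lost without WT replicate 1 (adjusted p = 0.0619), without TKO replicate 2 (-0.34, adjusted p = 0.101) and with all 10 libraries in 1 fit (0.0731). Of 11 genes of Wnt release and its control, 3 rose and 6 fell. Notum, an enzyme that removes the lipid from Wnt proteins, fell from 532 ± 79.6 to 35.7 ± 10.5 (-3.88, SE 0.27). The Wnt7 co-receptor pair Adgra2 and Reck, through which cells sense Wnt7a and Wnt7b, rose by 1.13 (SE 0.12) and 0.98 (SE 0.13). The glypican Gpc4 fell by 0.97 (SE 0.08).

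Of 16 receptor genes in NSCs 9 rose and 5 fell, with a median of 0.41. Fzd4, Fzd5 and the Wnt5a receptor Ror2 rose by 1.94 (SE 0.21), 1.75 (SE 0.20) and 1.504 (SE 0.15). Fzd9 fell from 1428 ± 107 to 180 ± 15.01 (-2.98, SE 0.14). Of 14 secreted antagonists and their partners 3 rose and 5 fell. Dkk1, which blocks the LRP co-receptor, rose from 21.9 ± 20.6 to 244 ± 19.8 (3.79, SE 0.63), whereas Sostdc1 fell by 2.27 (SE 0.33), Wif1 by 2.02 (SE 0.25) and Dkk2 by 1.51 (SE 0.09).

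The R-spondins strengthen Wnt signals by removing the receptor ligases Rnf43 and Znrf3. All 8 tested genes of this axis passed in NSCs, 2 higher and 6 lower, with a median of -1.51. Rspo3 stood at 4326 ± 814 in WT and 363 ± 0.48 in TKO (-3.55, SE 0.13), and Rspo2 at 3295 ± 134 and 329 ± 20.8 (-3.32, SE 0.10). Rnf43 fell by 2.31 (SE 0.27) and the R-spondin receptor Lgr5 by 1.74 (SE 0.41), the Lgr5 call being lost with all 10 libraries in 1 fit (adjusted p = 0.0879). The 2 genes that rose were the other R-spondin receptors, Lgr4 by 0.59 (SE 0.09) and Lgr6 by 0.74 (SE 0.17). Of 20 genes that relay the signal inside the cell, 4 rose and 5 fell (median -0.06), where 37.7% of all genes passed. Lef1 (-1.07, SE 0.16) and Pygo1 (-0.87, SE 0.12) were among those that fell, and Dvl2 (0.54, SE 0.07) was among those that rose.

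Of 18 known target genes of beta-catenin signalling, 13 fell and 4 rose in TKO NSCs, with a median of -1.22. Lef1, Notum, Rnf43, Lgr5 and Dkk1, given above, are in this list too. Axin2, a feedback inhibitor often read as a gauge of the pathway and named here after its values were seen, fell from 3021 ± 209 to 1006 ± 87.3 (-1.59, SE 0.09), and the roof plate factor Msx1 from 1072 ± 162 to 35.1 ± 5.52 (-4.89, SE 0.21). Cdx2, a trophoblast and posterior factor, rose from 3.89 ± 6.73 to 68.9 ± 6.41, a call that DESeq2 did not make (adjusted p = 0.216) and that was lost without TKO replicate 1 (adjusted p = 0.0562). T, the streak factor brachyury, rose from 666 ± 54.7 to 2863 ± 433 (2.10, SE 0.12).

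Regional genes of the places where these ligands are made moved too, in a comparison where 37.7% of all genes passed. Of 12 dorsomedial forebrain genes, 8 fell and 2 rose (median -1.5), with Dmrt3 at -5.00 (SE 0.29), Emx2 at -2.71 (SE 0.27) and Rspo2 as given above. Lhx2 was among those that rose (1.06, SE 0.18). Gdf7, a roof plate signal in both regional lists, was at -3.20 (SE 1.11, limma adjusted p = 0.0413), with no call by edgeR (0.146) or DESeq2 (0.116) or without TKO replicate 2 (-0.96, adjusted p = 0.333). Of 12 midbrain-hindbrain and roof genes, 9 fell and 0 rose (median -1.11), with Pax2 at -3.31 (SE 0.14), Zic1 at -1.97 (SE 0.10) and Otx2 at -1.55 (SE 0.07). Gdf7 also lost its call without each WT library (adjusted p = 0.0673 to 0.145) and with robust empirical Bayes (0.0536). The fall of Wnt8b and the level of Wnt1 stand beside these values, and their part was not tested. Of 10 primitive streak genes in NSCs 3 rose and 2 fell (median 0.38). T, given above, was among those that rose. Hand1, Gsc and Evx1 were at 2.56 (SE 0.88), 2.32 (SE 0.61) and -3.50 (SE 1.02). Gsc lost its call without TKO replicate 1 (adjusted p = 0.161), and Evx1 by edgeR (0.0659) and without TKO replicate 2 (-1.52, adjusted p = 0.0968), WT replicate 1 (0.0836) or WT replicate 3 (0.0680). Hand1 lost its call under the replicate block (adjusted p = 0.165), with neighbours centred (0.101) and without WT replicate 1 (0.0736), WT replicate 3 (0.0848) or TKO replicate 2 (0.0658).

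The same lists were read in ESCs, where 14.3% of all genes passed against 37.7% in NSCs. Of 8 R-spondin axis genes 3 rose and 1 fell, and of 12 midbrain-hindbrain and roof genes 0 rose and 4 fell. Of 11 genes of Wnt release 1 rose and 3 fell, of 16 receptors 1 and 2, and of 20 relay genes 4 and 2. None passed of 9 dorsomedial forebrain genes or 4 other Wnt ligands. Rspo3 fell from 55.5 ± 11.3 to 8.16 ± 4.75 (-2.71, SE 0.64), and Notum rose by 0.67 (SE 0.13). Of 19 target genes 4 rose and 4 fell (median -0.07). The largest of these changes were those of Sp5 (-2.45, SE 0.20), Cdx1, T and Lef1 (0.86, SE 0.15). Axin2 stood at 1153 ± 40.9 in WT and 1104 ± 39.1 in TKO (limma adjusted p = 0.797), and less the median of its neighbours at -0.48 (adjusted p = 0.0212). Cdx1, a posterior target, was lower by limma (-1.74, adjusted p = 0.0366) but not by edgeR (0.174) or DESeq2 (0.492), and stood at -0.25 without TKO replicate 2. Of 10 primitive streak genes 7 fell and 0 rose in ESCs (median -1.55), beside the values of the streak ligands Wnt3 and Wnt8a given above. Over the same libraries 6 of 10 pluripotent markers rose and 1 fell, their sum running from 185915 to 209382 in WT and from 227222 to 253982 in TKO. Of 8 neural crest markers listed 1 rose (sums of 3365 to 3597 and 5002 to 5051), and 3 of 10 trophoblast and epithelium markers fell (50094 to 54206 and 43619 to 44411). Of 9 neural stem markers 1 fell (7844 to 8648 and 6170 to 7089), and of 9 neuron markers listed 2 fell (14108 to 15137 and 11659 to 12473). Of 8 endothelium and blood markers listed 3 rose (2327 to 2593 and 3503 to 4749). Of 10 fibroblast and mesenchyme markers 0 passed (6672 to 7743 and 6030 to 9582). The part of these shifts in the streak result was not tested. Among the streak genes, Fgf8 fell by 2.66 (SE 0.27) and Foxa2 by 2.24 (SE 0.25), while Lhx1 (-2.50, SE 0.50) and Gsc (-1.78, SE 0.55) lost their calls without TKO replicate 2 (adjusted p = 0.0629 and 0.421). Gsc also lost it without WT replicate 2 (0.115), without WT replicate 3 (0.173), with neighbours centred (0.0611) and with all 10 libraries in 1 fit (0.0847). T lost its call without TKO replicate 2 too, and by DESeq2. Of 14 antagonists and their partners tested in ESCs, 1 rose and 2 fell (median 0.30), where 14.3% of all genes passed. Sfrp5 rose by 1.75 (SE 0.57, limma adjusted p = 0.0495). Cer1, which binds Wnt and Nodal proteins, fell by 3.56 (SE 0.70). The change of Frzb was -3.81 (SE 0.97, limma adjusted p = 0.0136), with no call by edgeR (0.0540) or without TKO replicate 1 (-1.72, adjusted p = 0.108), WT replicate 2 (0.0536) or WT replicate 3 (0.0563).

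**Figure D4:**
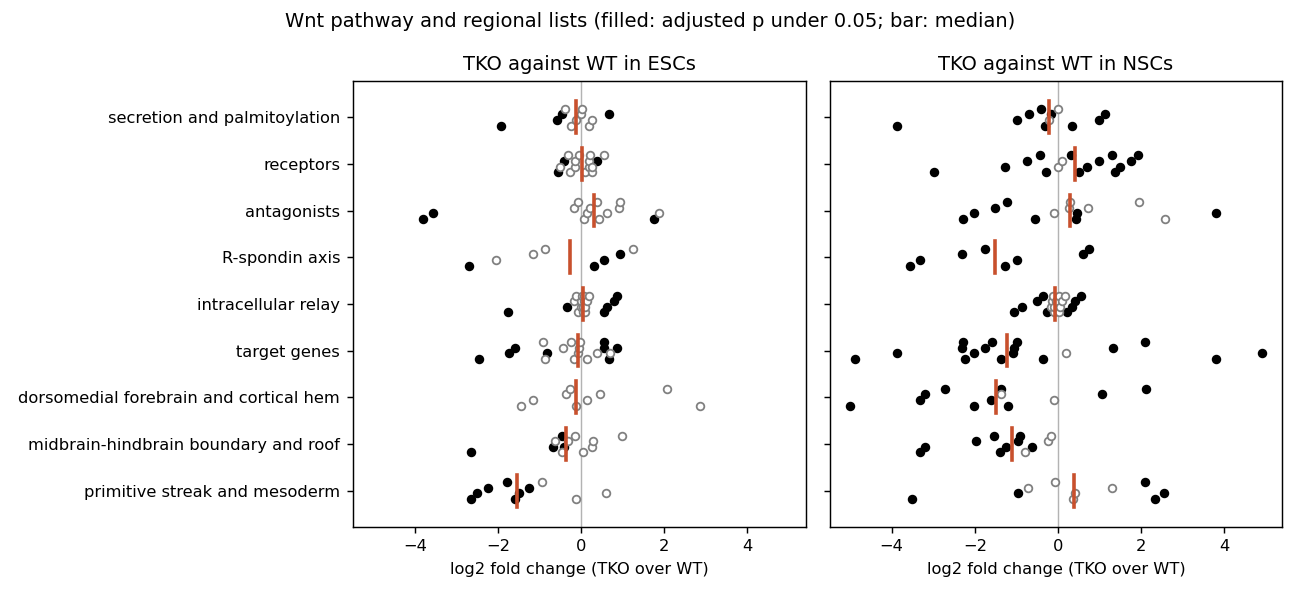
Log2 fold changes, TKO over WT, of the genes of 9 lists (the other Wnt ligands left out) in ESCs and NSCs; filled points passed at an adjusted p under 0.05 and the orange bar is the median of the list. In NSCs the bars of the R-spondin axis, the target genes and the forebrain list lie at -1.51, -1.22 and -1.5.

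Promoter contacts were read from 1 WT and 1 TKO NSC library, so no difference between genotypes was tested. A contact was counted for a ligand where a restriction fragment holding either end of its gene was joined to another fragment, and lines that gave the same pair in both directions were merged. The 10 ligands had 37 contacts in WT and 52 in TKO, of which 14 were in both lists, 37.8% of the WT and 26.9% of the TKO contacts. Over 14554 other protein-coding genes the shares were 34.6% and 36.6%, and the contacts numbered 72988 in WT and 68867 in TKO. Most of the ligands' added contacts in TKO were those of Wnt3 and Wnt3a, which had 1 and 7 in WT and 6 and 15 in TKO. Each list gave contacts for 8 ligands; Wnt4 and Wnt5b had none in either, while 81.5% of the other genes had one in WT and 79.3% in TKO. Fragments of the more downstream Wnt5b starts, which lie inside the gene, were not searched.

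Wnt7b, lower in TKO NSCs, had 6 contacts in WT and 9 in TKO, with 3 in both. These 3 lay 316, 311 and 270 kb from the gene's fragment, on the side of lower coordinates, with scores of the authors of 8.27, 10.8 and 6.24 in WT and 15.3, 7.40 and 5.46 in TKO. No other protein-coding gene had an end in those 3 fragments. Wnt8b had 2 contacts in WT, 228 and 471 kb away on the side of higher coordinates, and 3 in TKO, all on the other side, the farthest at 740 kb in a fragment with ends of Cox15 and Cutc. None of these 5 was in both lists, and their scores ran from 5.10 to 6.78, near the lowest listed score of 5.

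Wnt5a had 3 distant contacts in WT, at 412, 510 and 722 kb, and 1 in TKO at 222 kb, with none in both. Wnt8a had 1 in WT and 2 in TKO, also without a shared one. Wnt1 had 11 in WT and 8 in TKO with 3 shared; the TKO list alone joined it to the fragment of its neighbour Wnt10b, with a score of 5.36. Wnt7a, whose RNA did not pass the test, had 6 and 8 contacts with 3 shared, and the highest WT score of any ligand, 19.4 at 126 kb, where TKO had 11.4. A second shared contact joined it to Hdac11, at 256 kb.

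Of these contacts of Wnt3 and Wnt3a, 1 and 4 were shared. Both genes lie on chromosome 11, where the TKO list also held 1.88 and 1.61 times as many contacts as the WT list within 10 Mb of these genes. Around Wnt5b the ratio was 1.77, and around the other 7 ligands between 0.84 and 0.98. The same 3 neighbourhoods were those with median RNA changes of 0.41 to 0.59 in TKO cells, the other 7 lying near 0. The part of these shifts in the contact counts was not tested. The contact of Wnt3 with the fragment of Nsf, at 176 kb, was in both lists, as were the Wnt3a contacts at 46.7, 56.7, 191 and 196 kb.

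**Figure D5:**
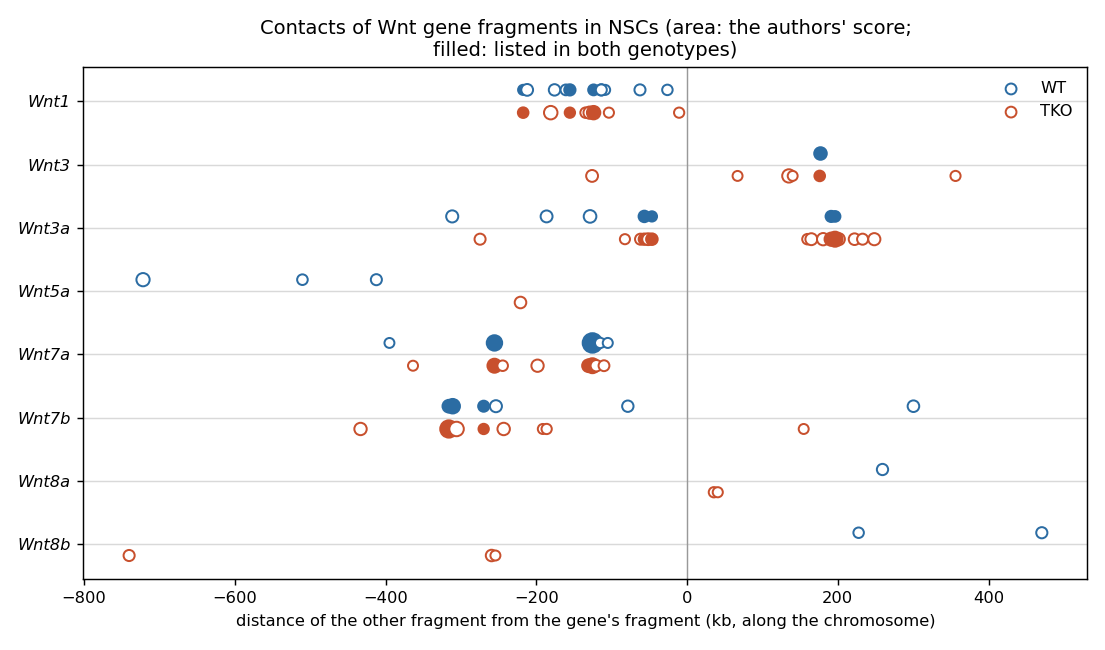
Contacts of the fragments of 8 ligands in NSCs by signed distance in kb along the chromosome, WT in blue above and TKO in orange below each line; the area of a circle follows the score of the authors, and filled circles are contacts listed in both genotypes. Wnt7b keeps its cluster of contacts near -311 kb in TKO, while no circle of Wnt8b or Wnt5a is filled.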

How the data were processed

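RNA-seq of 10 samples and pcHiC loop lists of 2 samples were used, and 4 bisulfite and 20 CUT&Tag samples of the series were left aside as not analysed here. The submitters' processing notes name DESeq2 1.40.2, featureCounts, STAR 2.7.3a and Trim Galore 0.6.5, and mm10. The deposited RNA values are a signal, read counts divided by DESeq2 size factors by the authors, in 1 table per cell type. Whole reads were recovered for 100% of values (tolerance 1e-06), and 75.2% to 82.7% of values up to 20 reads were even. No source used here states the loop caller or what the deposited score means; 59754 WT and 58145 TKO loops were listed.

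limma 3.58.1 (R 4.3.3, trend) was fitted to log2(value + 1) of genes with a mean of at least 10, with Benjamini-Hochberg adjustment over all genes. NSCs and ESCs were compared after joint median-of-ratios scaling of the genes in both tables. The tests on recovered reads were edgeR 4.0.16 (quasi-likelihood) and DESeq2 1.42.0. The limma fits were checked on simulated counts. For TKO against WT in NSCs, 67 genes were changed 2-fold, 67 4-fold and 66 8-fold, among 17413 genes. Of these, 65.7% of 2-fold and 90.9% of 8-fold changes were recovered. In that simulation 8.28% of calls at an adjusted p under 0.05 were false. In ESCs these shares were 65.7%, 89.4% and 2.58%. Far more genes passed in the NSC data (37.7%) than were changed in the simulation. Both kinds of share depend on that setting, so they are not error rates of the calls reported here. Gene positions came from RefSeq on GRCm38.p6 and matched 91.2% of names. The text names all 10 ligands. For the pathway, genes came from the 4 largest passing changes of a list in a comparison (not all 4 of every list). Added after their values were seen were Axin2, and Lgr4, Lgr6 and Lhx2, which rose in lists where most genes fell. Members and lists were chosen with earlier results of these data known. The line codes in the labels pair ESC with NSC libraries; deviations of the 3 WT pairs correlated at -0.0314, 0.0057 and 0.0243. P-values rest on the spread between libraries of different lines, with the variance moderated by limma over all genes. Line, NSC derivation and library are not separated in that spread. The main fits across cell types left the pairing of lines out. Precision is limited by 2 TKO lines. Alternatives changed the pseudocount, filter, scaling, test, centring, block and libraries, and, for contacts, the score, overlap and fragment. In the tables, 0 sample columns were left unused.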

Additional observations from a re-analysis of the deposited data

Results flagged for a closer look

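The effect of TET loss on Wnt7b differed between the cell types, by -4.45 on the log2 scale (NSC effect less ESC effect, limma adjusted p = 2.33e-07). It was lower in both TKO lines than in all 3 WT lines in NSCs, while the lines overlapped in ESCs. Wnt8a differed by 3.84 (limma adjusted p = 0.000450): both TKO lines were above all WT lines in NSCs and under all WT lines in ESCs. Its change in ESCs did not pass (limma adjusted p = 0.0684). TKO and WT libraries did not overlap for 59.9% of all genes in NSCs and 43.4% in ESCs. Both interaction calls held under every alternative tried, with adjusted p of at most 2.98e-06 and 0.00390. No group had the 4 samples that a test for single outlying libraries needs.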

How the results depend on the processing

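Without TKO ESC replicate 2 the number of genes called in ESCs was 1108 (range over libraries left out 1108 to 2302), and without TKO NSC replicate 1 the number with an interaction was 2092 (2092 to 3308). The other counts stayed within 1.5 times. Contacts with a score of at least 10 numbered 3 in WT, 5 in TKO and 2 in both; counting anchors within 10 kb as shared gave 19, and using the fragment of the transcript start alone, known for 7 ligands, gave 26, 38 and 11. Most of that last fall came from ligands without a known start, Wnt5a, Wnt7b and Wnt8a. They had 3, 6 and 1 contacts in WT and 1, 9 and 2 in TKO. With the replicate number as a block, 1912 genes passed in ESCs and 6275 in NSCs, Wnt4 passed in NSCs (0.53, adjusted p = 0.0154) and Wnt3 turned to 0.047. Deviations of samples of equal number correlated at r from -0.0173 to 0.0059. Those of the 2 TKO lines mirror each other by construction, so these values cannot tell whether equal numbers share a day or batch. The line block changed no other call of these ligands than those of Wnt3a and Wnt3 given above.

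Signs turned for ligands that had not passed. In ESCs Wnt5b stood at -0.000154 with equal totals, -0.027 by edgeR, -0.020 by DESeq2, -0.52 with neighbours centred, -0.012 under the replicate block, and from -0.20 to 0.27 with 1 library left out. With 1 ESC library left out, Wnt5a ran from -0.33 (without TKO replicate 2) to 0.50, and Wnt4 from -0.90 to 0.20 (without TKO replicate 2). In NSCs Wnt5b stood at -0.021 with neighbours centred. With 1 NSC library left out, Wnt3 ran from -0.49 to 0.20, Wnt4 from -0.22 to 1.09 and Wnt7a from -0.20 to 0.27, each between the fits without TKO replicate 1 and without TKO replicate 2. Between WT cell types Wnt3a stood at -0.085 by edgeR and -0.12 by DESeq2, and from -0.68 (without WT ESC replicate 2) to 0.64 (without WT ESC replicate 1) with 1 library left out. In TKO, Wnt3 ran from -0.31 to 0.39 between the fits without NSC replicate 1 and without NSC replicate 2. The cause was not tested. Where 1 library is left in a group, it is assumed to vary like the others. A filter at a mean of 50 left Wnt3a and Wnt7a untested in NSCs.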
